A study of Mus musculus with 22 samples.

Results

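Major urinary proteins are small secreted lipocalins, encoded in the mouse by a cluster of duplicated Mup genes. The 9 genes described here (Mup1, Mup3, Mup7, Mup11, Mup12, Mup15, Mup17, Mup20 and Mup21) are the rows of the deposited count table, 9 of 53392, whose identifiers map to these symbols. They were followed in the liver RNA of 22 female mice of the C57BL/6 strain, each sequenced as 1 library. The table holds 48 rows with a Mup symbol in all, of which 22 are protein-coding genes and 26 are pseudogenes, so 13 protein-coding Mup rows stand outside the 9.

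The groups were 5 germ-free pregnant, 6 germ-free non-pregnant, 5 conventional pregnant and 6 conventional non-pregnant mice, all of the same strain and on the same autoclaved chow. Germ-free mice are raised without microorganisms, and conventional mice carry an ordinary gut microbiota. Pregnant mice were labelled as taken at gestation day 15, a day that was assumed in germ-free mice after a mating period of 72 h and set from overnight mating in conventional mice. The age labels, whose unit is not stated, were 91 to 121 in germ-free pregnant, 92 to 105 in germ-free non-pregnant and 70 to 77 in both conventional groups. Age, the mating protocol and microbiota status can therefore not be told apart.

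Major urinary proteins are made by hepatocytes, pass from blood into urine, and bind small volatile molecules that act as scent signals. In mouse liver their transcription is stimulated by pulsatile growth hormone acting through STAT5, and also by androgen, thyroid hormone and glucocorticoid, and males make more than females. Mup20 encodes darcin, the male scent protein that attracts females. Mup1 has been studied as a circulating protein that affects glucose and energy metabolism.

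All 9 genes lie on the minus strand of chromosome 4 within 2084 kb of GRCm38. From low to high coordinates they are Mup7 (ENSMUSG00000073842.10, chr4:60066469-60070475), Mup1 (ENSMUSG00000078683.9, chr4:60498012-60501960), Mup11 (ENSMUSG00000073834.10, chr4:60658466-60662411) and Mup12 (ENSMUSG00000094793.1, chr4:60737383-60741326). Farther along are Mup15 (ENSMUSG00000096674.1, chr4:61435790-61439743), Mup17 (ENSMUSG00000096688.1, chr4:61591929-61595871) and Mup20 (ENSMUSG00000078672.2, chr4:62050234-62054158). Mup3 (ENSMUSG00000066154.11, chr4:62083476-62087342) and Mup21 (ENSMUSG00000066153.2, chr4:62147932-62150863) end the set. The annotated transcript used for each gene has 7 exons, except that of Mup21, which has 6.

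The coding sequences show which of these genes a short read can tell apart. Coding bases 100 to 159, numbered on Mup17, are given from the GENCODE M21 transcripts, chosen as the 60 bases without gaps that differ most among the 6 most similar genes. Capitals mark bases that differ from Mup17.
Mup17: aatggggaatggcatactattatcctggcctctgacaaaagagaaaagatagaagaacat
Mup15: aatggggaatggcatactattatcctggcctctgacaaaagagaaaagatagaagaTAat
Mup11: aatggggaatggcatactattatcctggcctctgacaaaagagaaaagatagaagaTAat
Mup12: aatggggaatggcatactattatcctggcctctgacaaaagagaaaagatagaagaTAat
Mup1: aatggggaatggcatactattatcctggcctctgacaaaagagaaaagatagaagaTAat
Mup7: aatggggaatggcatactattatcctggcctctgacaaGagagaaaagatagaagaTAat
Mup20: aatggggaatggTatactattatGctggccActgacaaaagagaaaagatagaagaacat
Mup3: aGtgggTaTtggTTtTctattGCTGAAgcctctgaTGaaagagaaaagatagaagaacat
Mup21: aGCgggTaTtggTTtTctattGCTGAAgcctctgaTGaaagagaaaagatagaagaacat
Even in this stretch, Mup1, Mup11, Mup12 and Mup15 carry the same letters, whereas Mup3 differs from Mup17 at 14 bases and Mup21 at 15.

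Over the whole coding sequence, the 6 genes Mup1, Mup7, Mup11, Mup12, Mup15 and Mup17 are 98.4% to 99.6% identical to each other. Mup20 is 90.1% to 91.4% identical to those 6, and Mup3 is 82.4% to 83.7% identical to them. Mup3 and Mup21 are 94.8% identical to each other. Of the 31-base windows of each transcript, the percentage found in no other gene was 66.2% for Mup21, 64.9% for Mup3 and 35.5% for Mup20. It was 13.8% for Mup17, 7.9% for Mup12, 7.1% for Mup11, 1.6% for Mup1, 1.4% for Mup7 and 0.0% for Mup15. The deposited values are Salmon's estimated counts, which divide reads that match several transcripts, so the single values of the 6 close copies are uncertain and their sum is given beside them. That sum can still share reads with Mup rows outside the 6, as Mup15 shares 88.6% and Mup11 84.4% of their windows with Mup2.

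**Figure D1:**
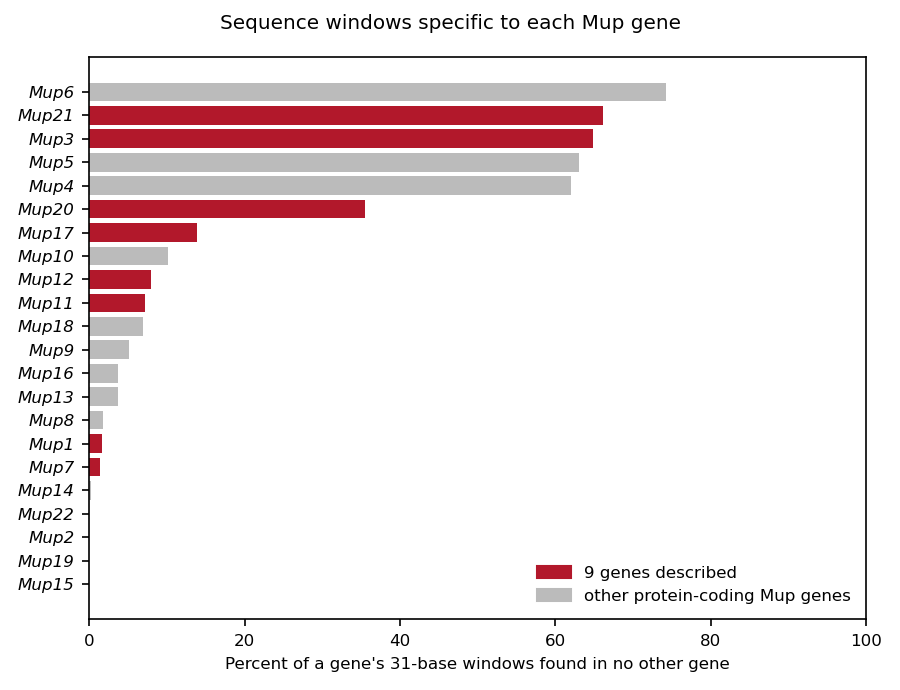
Percent of each protein-coding Mup transcript's 31-base windows that occur in no other gene of GENCODE M21 (x axis), by gene (y axis). Red bars are the 9 genes described and grey bars the other protein-coding Mup genes; Mup21, Mup3 and Mup20 stand at 66.2%, 64.9% and 35.5%, and the 6 close copies at 13.8% or less.

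Upstream sequence was given for 6 of the 9 genes in the RefSeq table of windows from 250 bases before to 50 after the annotated start (GRCm38.p6, minus strand), and not for Mup1, Mup12 and Mup20. The stretches from 250 to 101 bases before the start are shown for Mup21 and Mup3, its closest relative among the 9, of which Mup21 rose in pregnancy and Mup3 did not pass the test, and for Mup15 and Mup17, both called lower in germ-free than in conventional non-pregnant livers. Capitals mark TGTTCT, a steroid receptor half-site.
Mup21, chr4:62150942-62151091: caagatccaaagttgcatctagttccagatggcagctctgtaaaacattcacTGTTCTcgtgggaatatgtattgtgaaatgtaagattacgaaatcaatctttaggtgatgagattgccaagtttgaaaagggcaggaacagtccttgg
Mup3, chr4:62087418-62087567: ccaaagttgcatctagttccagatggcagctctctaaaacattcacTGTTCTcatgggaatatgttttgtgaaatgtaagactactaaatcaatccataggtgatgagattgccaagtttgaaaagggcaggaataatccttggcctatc
Mup15, chr4:61439805-61439954: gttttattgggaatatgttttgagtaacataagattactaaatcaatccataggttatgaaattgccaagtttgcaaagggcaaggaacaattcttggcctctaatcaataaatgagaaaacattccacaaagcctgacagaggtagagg
Mup17, chr4:61595933-61596082: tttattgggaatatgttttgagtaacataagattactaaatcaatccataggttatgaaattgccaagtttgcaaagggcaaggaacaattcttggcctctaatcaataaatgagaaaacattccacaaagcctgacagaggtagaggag
Over the whole 300-base windows, those of Mup21 and Mup3 were 90.2% identical and those of Mup15 and Mup17 were 98.0% identical. TGTTCT, searched on both strands, lay at position -198 from the start of Mup21 and at -204 from that of Mup3, and was in none of the other 4 windows. The windows of Mup15 and Mup17 begin within the place that lines up with this site, so a whole site there could not be found in them. TTCNNNGAA, the form of a STAT5 site, was in none of the 6. Of 32851 windows of this length, 19.0% hold TGTTCT and 8.3% hold TTCNNNGAA, and although the 2 motifs can share letters, no match of one lay on a match of the other in the 6 windows.

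The libraries held 18064491 to 30036912 estimated counts. All 8 hepatocyte markers examined passed the filter on low counts. Their summed level was at least 51058 CPM (counts per TMM-scaled library size, the usual normalised read count) in every library. Most of it was albumin (Alb), at 36217 CPM in the library with that lowest sum, germ-free non-pregnant replicate 2. Conventional pregnant replicate 2 stood apart from the other 21 libraries: it had 2049 CPM of Saa1 and 2156 CPM of Saa2, acute phase genes of the liver, against at most 62.2 and 43.5 CPM in any other library. Its summed markers of Kupffer cells (1574 CPM), of T and NK cells (34.1 CPM) and of neutrophils (23.0 CPM) were also the highest of all. That library and germ-free non-pregnant replicate 2 had the lowest summed level of the 9 Mup genes in their groups. The gene lists were recounted without both, but because the second was picked for its Mup level, calls of Mup genes without both are not read as support.

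Summed over the 9 genes, Mup RNA was on average lowest in germ-free pregnant livers and highest in conventional non-pregnant ones. In a bulk sample, fewer cells of a type and less RNA per cell cannot be told apart. The sum was 1826, 787, 1477, 1606 and 1064 CPM in the 5 germ-free pregnant livers. Among the 6 germ-free non-pregnant livers the lowest, median and highest sums were 284, 1359.9 and 4563 CPM. The 5 conventional pregnant livers had 2392, 277, 3345, 2380.2 and 2289 CPM, against a lowest, median and highest of 4316, 5942 and 10656 CPM in conventional non-pregnant livers. Each conventional pregnant value lay under each conventional non-pregnant one, while in the other 3 comparisons the ranges overlapped. As a ratio of group means, the sum was 0.325 in conventional pregnant against non-pregnant livers, 0.777 in germ-free pregnant against non-pregnant livers, 0.265 in germ-free against conventional non-pregnant livers and 0.633 in germ-free against conventional pregnant livers. Without germ-free non-pregnant replicate 6, the ratio for pregnancy in germ-free mice changed direction, to 1.15. These sums are described without a test.

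**Figure D2:**
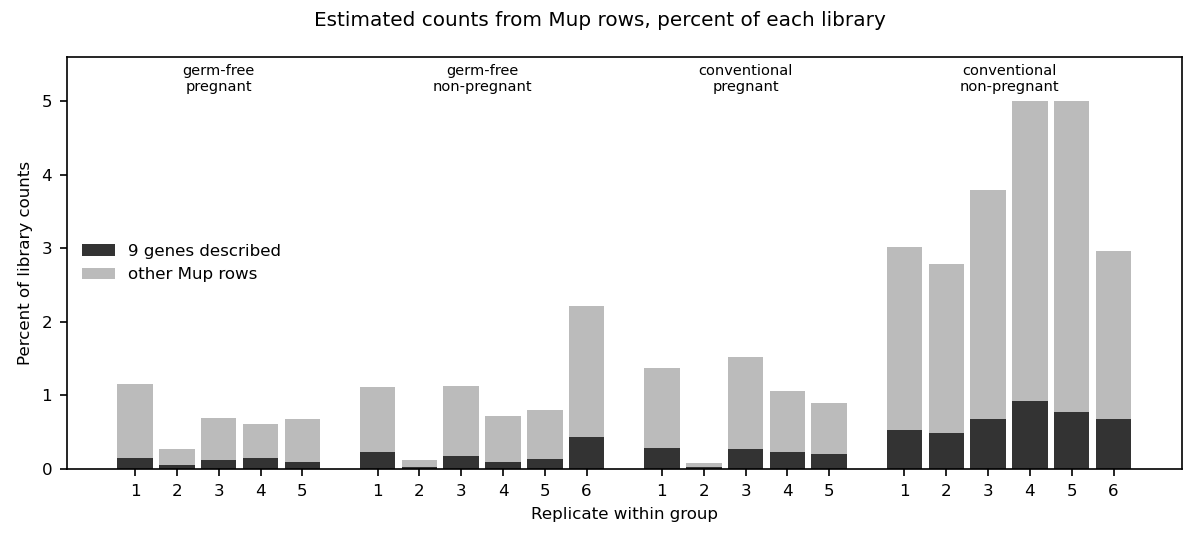
Estimated counts of Mup rows as a percent of each library's counts (y axis), by replicate within group (x axis). Dark bars are the 9 genes described and grey bars the other Mup rows; conventional non-pregnant libraries reached 2.79% to 5.01% and the highest of any other library was 2.21%.

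Taken as a share of each library's counts, all Mup rows made up 0.681% ± 0.318 in germ-free pregnant, 1.02% ± 0.690 in germ-free non-pregnant, 0.987% ± 0.562 in conventional pregnant and 3.76% ± 1.02 in conventional non-pregnant livers (mean ± SD, n = 5, 6, 5 and 6). The 9 genes were 18.5%, 18.1%, 24.9% and 18.3% of those Mup counts in the same order of groups. Most of the rest was assigned to Mup22, which took 49.6% of the Mup counts in each pregnant group, 62.1% in germ-free non-pregnant livers and 54.1% in conventional non-pregnant livers. Mup22 has no 31-base window of its own, so these shares also rest on how reads were divided.

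In pregnancy, Mup20 was lower and Mup21 higher, in germ-free as in conventional livers. In germ-free mice, 1 of the 9 genes was called higher (Mup21) and 2 were called lower (Mup20 and Mup12), at an edgeR adjusted p under 0.05. Over all 15928 genes tested, 10.8% were called in that comparison, 7.15% higher and 3.6% lower. In conventional mice, Mup21 was called higher and 5 genes were called lower (Mup11, Mup12, Mup1, Mup17 and Mup20), where 9.02% of all genes were called, 5.49% higher and 3.52% lower. Over the other fits, the genes called lower in conventional pregnancy numbered 4 to 7. In germ-free pregnancy 1 gene was called lower without germ-free non-pregnant replicate 6, the library with the highest sum of the 9 in its group. The median log2 change of the 9 genes was -1.28 in germ-free and -2.60 in conventional pregnancy, against -0.02 and 0.04 over all genes tested. The germ-free median rested on that replicate and was 0.11 without it. All 9 genes passed the filter on low counts in both.

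**Figure D3:**
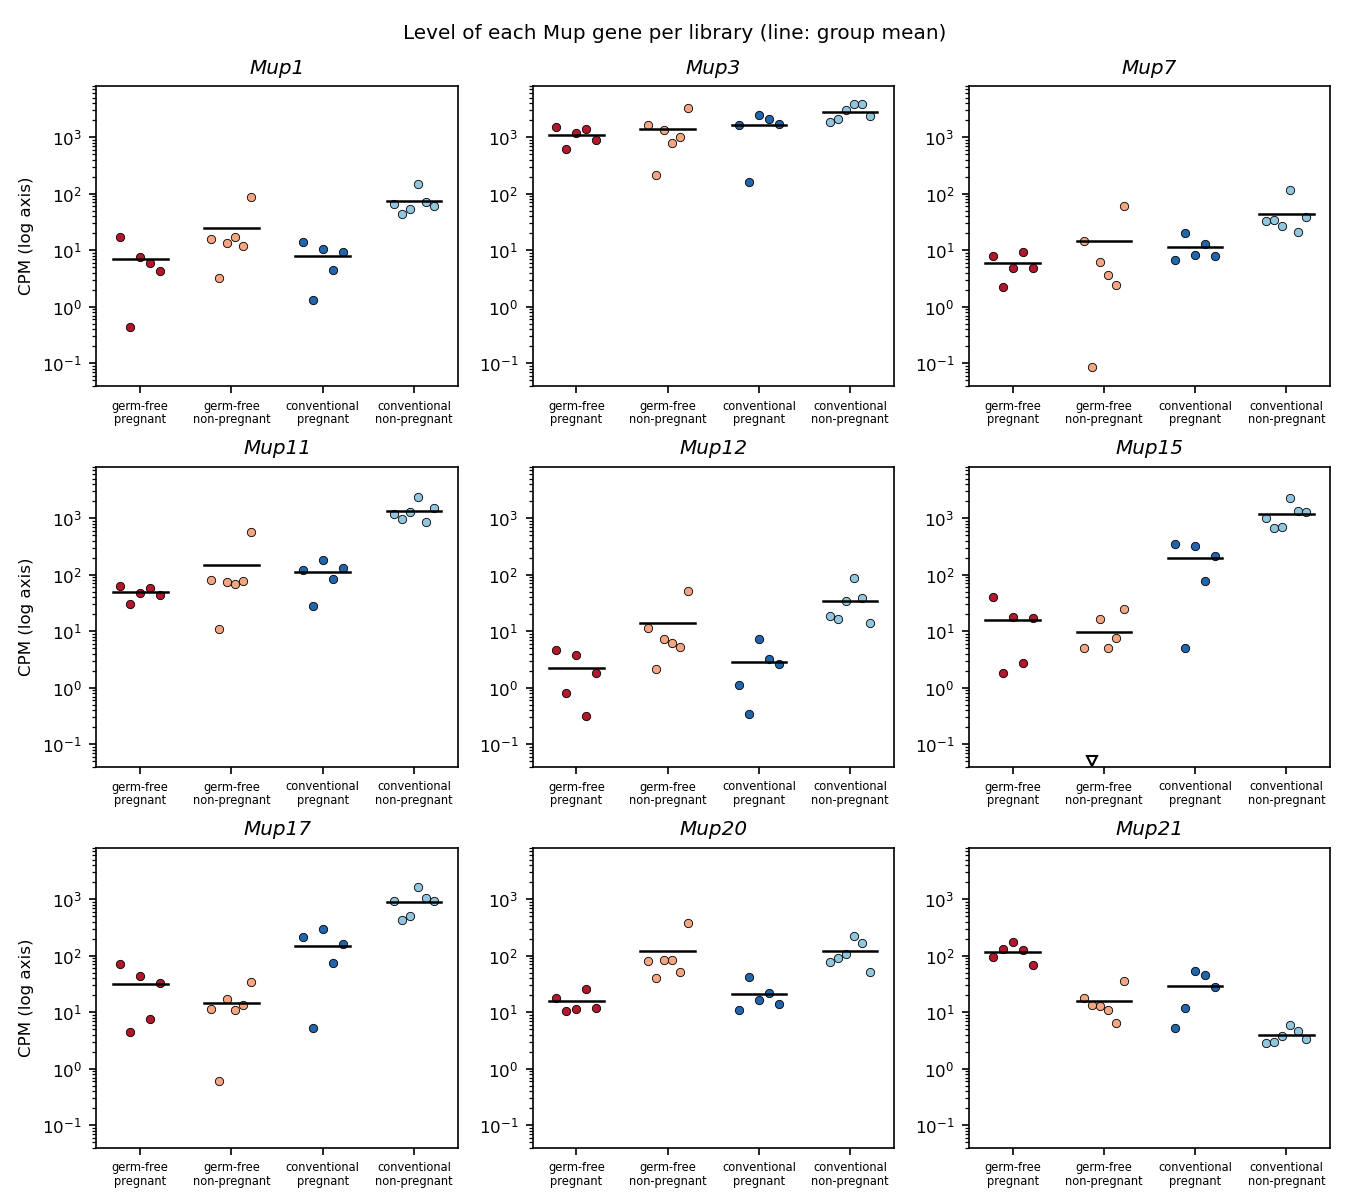
CPM of each Mup gene in every library (y axis, log scale), by group (x axis). Each point is 1 mouse and each line a group mean; the open triangle marks the germ-free non-pregnant library with 0 counts of Mup15, drawn at the foot of the axis. Mup21 is highest in germ-free pregnant livers, and Mup20 is low in both pregnant groups.

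Mup21, with the highest percentage of unique windows of the 9, had 94.6, 131, 171, 124 and 68.5 CPM in the 5 germ-free pregnant livers. In germ-free non-pregnant livers its lowest, median and highest values were 6.34, 13.2 and 35.1 CPM. In conventional pregnant livers it had 5.19, 12.0, 54.1, 45.3 and 27.5 CPM, against 2.85, 3.59 and 5.84 CPM as the lowest, median and highest in conventional non-pregnant livers. The lowest germ-free pregnant liver stood above every germ-free non-pregnant liver, and 4 of the 5 conventional pregnant livers stood above every conventional non-pregnant one. Mup21 rose by 2.88 ± 0.45 on the log2 scale in germ-free pregnancy (± SE, edgeR adjusted p = 0.000119). In conventional pregnancy it rose by 2.88 ± 0.46 (edgeR adjusted p = 0.000233). Each of the 22 fits that left out 1 library of the comparison also called it.

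Mup20, the darcin gene, moved the opposite way. It had 18.1, 10.6, 11.6, 25.6 and 11.8 CPM in germ-free pregnant livers, against a lowest, median and highest of 39.9, 83.1 and 375 CPM in germ-free non-pregnant livers. Conventional pregnant livers had 10.9, 42.7, 16.3, 21.5 and 13.9 CPM, against 50.5, 99.5 and 226 CPM in conventional non-pregnant livers. Neither pair of groups overlapped. Its log2 change was -2.94 ± 0.54 in germ-free pregnancy (edgeR adjusted p = 0.000651) and -2.51 ± 0.53 in conventional pregnancy (edgeR adjusted p = 0.00312). The highest conventional pregnant value, 42.7 CPM, came from replicate 2, the library with high acute phase genes, and the call held in each fit that left out 1 library.

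Mup3, the most abundant of the 9, did not pass the test in either pregnancy comparison. Its values were 1508, 604, 1170, 1372 and 879 CPM in germ-free pregnant livers, against 214, 1157 and 3328 CPM as the lowest, median and highest in germ-free non-pregnant livers. In conventional pregnant livers they were 1663, 161, 2449, 2058 and 1721 CPM, against 1877, 2656 and 3884 CPM in conventional non-pregnant livers. The groups overlapped in both pairs. The log2 difference was -0.32 ± 0.51 in germ-free mice (edgeR adjusted p = 0.763) and 0.16 without germ-free non-pregnant replicate 6. In conventional mice it was -0.81 ± 0.52 (edgeR adjusted p = 0.39), and -0.52 without conventional pregnant replicate 2.

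In conventional non-pregnant livers the range of Mup15 overlapped that of Mup11, which had the highest mean of the 6 close copies. Conventional pregnant livers had 123, 28.5, 182, 83.3 and 132 CPM of it, against 856, 1243 and 2332 CPM as the lowest, median and highest in conventional non-pregnant livers, with no overlap. Germ-free pregnant livers had 63.6, 30.8, 47.4, 57.7 and 43.8 CPM, against 10.9, 75.4 and 567 CPM in germ-free non-pregnant livers, and these ranges overlapped. Mup11 fell by 3.63 ± 0.68 on the log2 scale in conventional pregnancy (edgeR adjusted p = 0.00112), and its log2 difference in germ-free pregnancy was -1.59 ± 0.62 (edgeR adjusted p = 0.109). The germ-free value was -0.35 without germ-free non-pregnant replicate 6 (edgeR adjusted p = 0.701) and -1.83 without replicate 2 of that group (edgeR adjusted p = 0.0309).

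Mup12 and Mup1 were scarcer and were lower in conventional pregnancy too. Mup12 had 1.12, 0.344, 7.17, 3.27 and 2.64 CPM in conventional pregnant livers, against 14.2, 26.2 and 87.5 CPM as the lowest, median and highest in conventional non-pregnant livers. It fell by 3.59 ± 0.80 on the log2 scale there (edgeR adjusted p = 0.00541), with no overlap. In germ-free pregnant livers Mup12 had 4.58, 0.801, 3.75, 0.323 and 1.83 CPM, against 2.17, 6.81 and 51.4 CPM in germ-free non-pregnant livers, and the ranges overlapped. The fitted log2 change was -2.63 ± 0.79 (edgeR adjusted p = 0.0334), a call lost in 4 of 11 fits that left out 1 library, among them the fit without germ-free non-pregnant replicate 6, where it was -1.53 (edgeR adjusted p = 0.176). Without germ-free pregnant replicate 2, 4 or 5 it was -2.42, -2.34 and -2.57 in turn.

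Mup1 had 13.9, 1.32, 10.4, 4.39 and 9.22 CPM in conventional pregnant livers, against 42.9, 62.6 and 151 CPM in conventional non-pregnant livers. The ranges did not overlap, and Mup1 fell by 3.24 ± 0.74 on the log2 scale (edgeR adjusted p = 0.00648). Germ-free pregnant livers had 17.2, 0.437, 7.67, 5.99 and 4.23 CPM of Mup1, against 3.26, 14.7 and 88.6 CPM in germ-free non-pregnant livers, and these ranges overlapped (log2 difference -1.82 ± 0.71, edgeR adjusted p = 0.108). That difference was -0.80 without germ-free non-pregnant replicate 6 (edgeR adjusted p = 0.474) and -2.43 without germ-free pregnant replicate 1 (edgeR adjusted p = 0.0385). Mup7 ran from 6.74 to 20.4 CPM in conventional pregnant livers, against 21.1 to 114 CPM in conventional non-pregnant livers. These did not overlap, yet the log2 difference of -1.98 ± 0.77 did not pass the test (edgeR adjusted p = 0.117), and passed it with the 2 groups alone (edgeR adjusted p = 0.0165). Of 11 fits that left out 1 library, 0 called it. In germ-free mice Mup7 ran from 2.23 to 9.35 CPM in pregnant livers, against 0.0871 to 59.3 CPM in non-pregnant livers. Its log2 difference there was -1.28 (edgeR adjusted p = 0.331), and 0.11 without germ-free non-pregnant replicate 6.

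Mup15 and Mup17 were at 426 CPM or more in every conventional non-pregnant liver and at 355 CPM or less in every other library. Mup17 had 214, 5.28, 295, 73.1 and 159 CPM in conventional pregnant livers, against a lowest, median and highest of 426, 929 and 1619.9 CPM in conventional non-pregnant livers. The ranges did not overlap, and Mup17 fell by 2.60 ± 0.80 on the log2 scale (edgeR adjusted p = 0.043), a call lost in 7 of 11 fits that left out 1 library, where the highest adjusted p was 0.0926. Mup15 had 355, 5.11, 322, 78.7 and 216 CPM in conventional pregnant livers, against 662, 1148 and 2235 CPM in conventional non-pregnant livers. These ranges did not overlap either, while the log2 difference of -2.62 ± 0.91 did not pass the test (edgeR adjusted p = 0.075). It did pass with DESeq2 (adjusted p = 0.0464), with no filter on low counts (edgeR adjusted p = 0.0478) and with the 2 groups alone (edgeR adjusted p = 0.0489). With other size factors, a stricter filter on low counts or age as a covariate it did not pass. Of 11 fits that left out 1 library, 0 called it.

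Between germ-free pregnant and germ-free non-pregnant livers, neither gene passed the test. Germ-free pregnant livers had 40.7, 1.81, 17.9, 2.72 and 17.1 CPM of Mup15, against 0, 6.37 and 24.8 CPM as the lowest, median and highest in germ-free non-pregnant livers (log2 difference 0.71 ± 0.86, edgeR adjusted p = 0.671). Mup17 had 72.0, 4.42, 43.1, 7.57 and 32.7 CPM in germ-free pregnant livers, against 0.608, 12.5 and 33.7 CPM in germ-free non-pregnant livers (1.14 ± 0.75, edgeR adjusted p = 0.379). Without germ-free pregnant replicate 1, the highest library for both, the differences were 0.02 for Mup15 and 0.60 for Mup17, and without germ-free non-pregnant replicates 2 and 6 in turn that of Mup15 was 0.45 and 1.24.

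Taken without regard to how reads were split among them, the 6 close copies summed to 713, 60.9, 825, 256 and 527 CPM in conventional pregnant livers. These sums still rest on how reads were divided between the 6 and other Mup rows. Conventional non-pregnant livers had 2142, 3298 and 6539.8 CPM as the lowest, median and highest sums, so the ranges did not overlap and the ratio of means was 0.132. Germ-free pregnant livers had 206, 40.5, 125, 83.6 and 105 CPM, against 17.0, 126 and 825 CPM in germ-free non-pregnant livers, with overlap and a ratio of means of 0.500. Germ-free non-pregnant replicate 6 held the 825 CPM, and without it the ratio was 1.08.

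**Figure D4:**
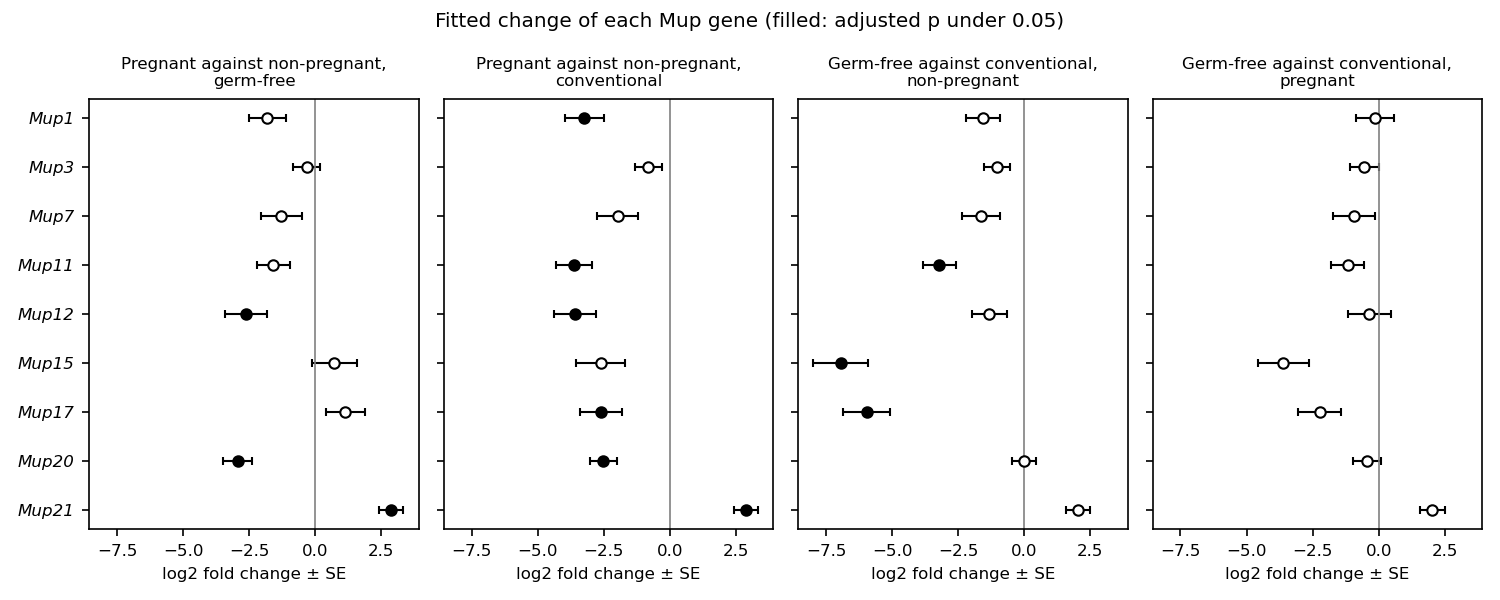
Log2 fold change ± SE from edgeR (x axis) for each of the 9 Mup genes (y axis) in the 4 comparisons, 1 panel each. Filled points have an adjusted p under 0.05: 3 genes in germ-free pregnancy, 6 in conventional pregnancy, 3 between germ-free and conventional non-pregnant livers and 0 between germ-free and conventional pregnant livers.

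Counting non-overlap alone, 7 of the 9 genes were lower in conventional pregnant than in conventional non-pregnant livers, where 2.39% of all genes tested were lower in that sense, and 0 of the 9 were higher, against 2.57% of all genes. In germ-free pregnancy 1 gene was higher and 1 lower without overlap, against 5.68% and 2.83% of all genes. Where 7.15% of all genes were called higher in germ-free and 5.49% in conventional pregnancy, 7 of 7 and 2 of 7 erythroid markers were. They summed to 1759 to 3573 CPM in germ-free pregnant against 237 to 1768 CPM in germ-free non-pregnant livers, and to 369 to 2251 CPM in conventional pregnant against 448 to 862 CPM in conventional non-pregnant livers. The summed hepatocyte markers were 120173 to 181658 CPM in germ-free pregnant against 51058 to 86979.6 CPM in germ-free non-pregnant livers, with 3 of 8 called higher and 1 lower. They were 64112 to 230333 CPM in conventional pregnant against 59715 to 85026 CPM in conventional non-pregnant livers, with 2 of 8 called higher and 2 lower, and none of the 8 was at 0. Most of the hepatocyte sum was Alb, with 50011 of the 64112 CPM in conventional pregnant replicate 2. Alb itself was called higher in pregnancy, by 1.13 ± 0.28 in germ-free and 1.25 ± 0.28 in conventional mice on the log2 scale (edgeR adjusted p = 0.00853 and 0.00535). The sum is therefore no measure of how many hepatocytes a sample held. The part of the erythroid and hepatocyte markers in the Mup levels was not tested.

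Comparing germ-free with conventional mice that were not pregnant, Mup15, Mup17 and Mup11 were lower in germ-free livers. These 3 of 9 genes were called lower and 0 higher, where 0.157% of all 15928 genes were called, 0.0879% higher and 0.0691% lower. Without overlap, 3 of the 9 genes were lower and 1 higher, against 0.427% and 0.352% of all genes. The median log2 difference of the 9 genes was -1.57, against -0.01 over all genes tested, and it was -2.58 without germ-free non-pregnant replicate 6.

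Mup15 had 5.00, 0, 16.3, 5.01, 7.72 and 24.8 CPM in the 6 germ-free non-pregnant livers, against 662 to 2235 CPM in conventional non-pregnant livers, and fell by 6.94 ± 1.04 on the log2 scale (edgeR adjusted p = 0.00185). Mup17 had 11.4, 0.608, 16.9, 10.9, 13.7 and 33.7 CPM in germ-free non-pregnant livers, against 426 to 1619.9 CPM in conventional non-pregnant livers, and fell by 5.96 ± 0.88 (edgeR adjusted p = 0.0018). The highest germ-free value of either gene stayed far under the lowest conventional one. Mup15 and Mup17 together summed to 0.608, 18.9 and 58.5 CPM (lowest, median and highest) in germ-free non-pregnant livers, against 1088, 2077 and 3855 CPM in conventional non-pregnant livers. The conventional mean was 86.6 times the germ-free one, whereas for all Mup rows it was 3.75 times as high. This pair had the largest differences of the 9 genes. Mup15 has 0.0% of windows of its own, so the ratio also rests on how reads were divided. Both calls held in each of 12 fits that left out 1 library, but with the age label as a covariate, 0 of all 15928 genes were called in this comparison, with 560 at an unadjusted p under 0.05, 3 of them among the 9. The log2 differences in that fit were -4.76 for Mup15, -4.43 for Mup17 and -4.02 for Mup11 (edgeR adjusted p = 1.0 for each).

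For Mup11, germ-free non-pregnant livers had 79.8, 10.9, 72.8, 68.4, 78.0 and 567 CPM, against 856 to 2332 CPM in conventional non-pregnant livers. It fell by 3.21 ± 0.62 on the log2 scale (edgeR adjusted p = 0.0267), without overlap. That call was lost in 8 of 12 fits that left out 1 library, with log2 differences of -3.25 to -2.99 in those 8, and in the fit of these 12 libraries alone, where it was -3.21 (edgeR adjusted p = 0.0791). Without germ-free non-pregnant replicate 6 it was -4.45 (edgeR adjusted p = 9.23e-05). The 6 close copies summed to 17.0 to 825 CPM in germ-free non-pregnant livers, against 2142 to 6539.8 CPM in conventional non-pregnant livers, a ratio of means of 0.0620 without overlap, or 0.0287 without germ-free non-pregnant replicate 6.

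Mup21 lay higher in each germ-free non-pregnant liver than in any conventional one, at 17.6, 13.3, 13.0, 10.8, 6.34 and 35.1 CPM, against 2.85 to 5.84 CPM. The log2 difference of 2.03 ± 0.44 did not pass the test (edgeR adjusted p = 0.0698), and did pass it with DESeq2 (adjusted p = 0.0039), with no filter on low counts, with these 2 groups alone and without germ-free non-pregnant replicate 5 (edgeR adjusted p = 0.0403). The fit without that replicate was the only 1 of 12 leaving out 1 library to call it. It was not called with other size factors, the stricter filter, the replicate block or age. Mup20 averaged 119 ± 127 CPM in germ-free and 120.1 ± 64.9 CPM in conventional non-pregnant livers (SD, n = 6 each), a log2 difference of -0.01 ± 0.46 (edgeR adjusted p = 1.0). Without germ-free non-pregnant replicate 6, which had 375 CPM, it was -0.81 (edgeR adjusted p = 0.876). Mup3 averaged 1379.9 ± 1068 CPM in germ-free and 2832 ± 882 CPM in conventional non-pregnant livers, a log2 difference of -1.04 ± 0.49 (edgeR adjusted p = 0.808). The differences of Mup1, Mup7 and Mup12 lay between -1.63 and -1.32 and did not pass the test. Without germ-free non-pregnant replicate 6 they were -2.58, -3.03 and -2.41 in turn and did not pass it either, and Mup12 was at -0.80 without conventional non-pregnant replicate 4.

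Among pregnant mice, 0 of the 9 genes were called between germ-free and conventional livers by edgeR, where 0.132% of all genes were called, 0.0816% higher and 0.0502% lower, and 3 had an unadjusted p under 0.05. DESeq2 called 1 higher and 1 lower. Mup21 was again higher in each germ-free liver (68.5 to 171 CPM) than in any conventional one (5.19 to 54.1 CPM), where 0.502% of all genes were higher and 0.603% lower without overlap. Its log2 difference was 2.03 ± 0.47 (edgeR adjusted p = 0.104, DESeq2 adjusted p = 0.0115), and it passed the test without conventional pregnant replicate 3 (edgeR adjusted p = 0.0483). Of 10 fits that left out 1 library, that was the only 1 to call it. Mup15 averaged 16.1 ± 15.7 CPM in germ-free and 195 ± 151 CPM in conventional pregnant livers (SD, n = 5 each), a log2 difference of -3.61 ± 0.98 (edgeR adjusted p = 0.183). The ranges overlapped, with conventional pregnant replicate 2 at 5.11 CPM. The median log2 difference of the 9 genes was -0.54, against -0.03 over all genes, and -1.22 with age as a covariate.

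Whether the pregnancy change differed by microbiota status was tested as an interaction, and edgeR called 0 of the 9 genes and 0 of all 15928 genes (0.0%). At an unadjusted p under 0.05 there were 903 genes, 3 of them among the 9. DESeq2 called 2 genes higher and 5 lower, none of them among the 9. The interaction was 3.74 ± 1.09 for Mup17, 3.34 ± 1.23 for Mup15 and 2.04 ± 0.85 for Mup11 on the log2 scale (edgeR adjusted p = 0.863 for each), and that of Mup11 was 3.28 without germ-free non-pregnant replicate 6 (edgeR adjusted p = 0.117). For Mup20 it was -0.43 ± 0.69 (edgeR adjusted p = 0.95), and for Mup21 it was 0.00 (edgeR adjusted p = 1.0). The 2 pregnancy comparisons and the 2 microbiota comparisons share libraries in pairs, so the values above are set side by side without a measure of likeness.

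**Figure D5:**
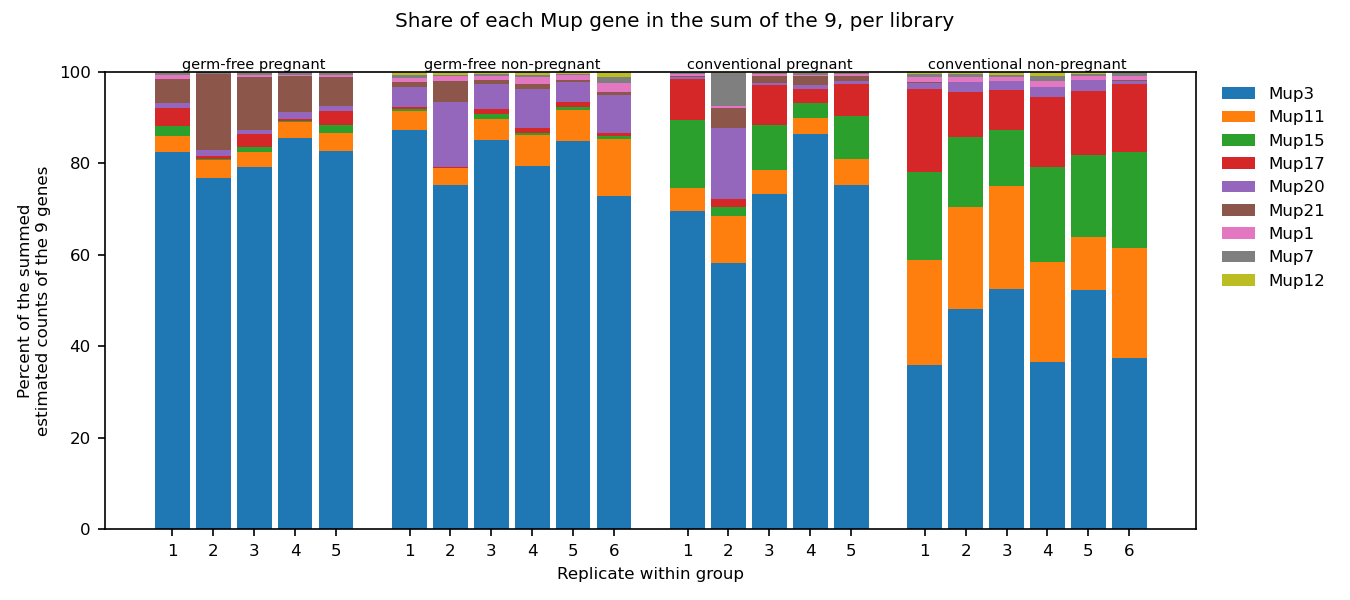
Share of each gene in the summed estimated counts of the 9 Mup genes (y axis, percent), by replicate within group (x axis). Mup3 takes 35.99% to 52.5% in conventional non-pregnant livers and at least 58.2% in every other library, and Mup21 takes 5.18% to 16.7% in germ-free pregnant livers.

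As shares of the sum of the 9, the mix of genes differed between groups. Mup3 took 81.3% ± 3.36 in germ-free pregnant, 80.8% ± 5.87 in germ-free non-pregnant, 72.5% ± 10.2 in conventional pregnant and 43.8% ± 8.02 in conventional non-pregnant livers (mean ± SD, n = 5, 6, 5 and 6). No conventional non-pregnant liver reached the Mup3 share of any other library. Mup11, Mup15 and Mup17 made up most of the rest of the conventional non-pregnant sum, at 20.9% ± 4.59, 17.8% ± 3.44 and 13.4% ± 3.51. In germ-free non-pregnant livers those 3 genes took 6.45% ± 3.18, 0.503% ± 0.356 and 0.818% ± 0.369.

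Mup21 was 9.52% ± 4.66 of the sum in germ-free pregnant livers, against 1.48% ± 1.59 in germ-free non-pregnant livers, which was 0.835% without replicate 2, at 4.70%. In conventional livers it was 1.85% ± 1.53 in pregnant mice (1.23% without replicate 2) and 0.0607% ± 0.00710 in non-pregnant mice. Mup20 took 1.17% ± 0.314 in germ-free pregnant against 7.47% ± 3.69 in germ-free non-pregnant livers. Its mean share of 3.58% in conventional pregnant livers rested on replicate 2, with 15.4%, and was 0.613% without that library, against 1.78% ± 0.546 in conventional non-pregnant livers. Mup7 likewise took 7.36% in that replicate and its mean share of the conventional pregnant sum was 0.355% without it, against 1.76% with it. Mup1 and Mup12 each stayed under 2% in every library, with highest shares of 1.94% and 1.13%.

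Levels were also compared between genes per kb of transcript, since Mup21 has a shorter transcript (677 bases) than the others (925 to 938 bases). On this scale Mup3 ranked first in all 4 groups, at 1179.8 ± 391 CPM per kb in germ-free pregnant, 1471 ± 1139 in germ-free non-pregnant, 1717 ± 926 in conventional pregnant and 3019 ± 941 in conventional non-pregnant livers. Mup21 ranked 2 in germ-free pregnant livers, with 174 ± 57.4 CPM per kb, and 9 in conventional non-pregnant livers, with 5.80 ± 1.69 CPM per kb. In germ-free pregnant livers Mup3 was apart from Mup21, and Mup21 from Mup11 (52.3 ± 13.7 CPM per kb), while from there on each gene overlapped the next. In conventional non-pregnant livers the breaks came between Mup17 (977 ± 464) and Mup20 (129 ± 69.9 CPM per kb), and between Mup12 (37.6 ± 29.8) and Mup21. In the other 2 groups each gene's range overlapped that of the next in the order.

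Among the 13 other protein-coding Mup genes, 11 were tested, and Mup4 and Mup6 were not, with at most 4 and 6 counts in any library. In conventional pregnancy 0 of the 11 were called higher and 6 lower, against 5.49% and 3.52% of all genes tested. Of these 6, Mup5 averaged only 0.142 CPM in conventional pregnant and 0.718 CPM in conventional non-pregnant livers. Mup2 has 0.0% of windows of its own, and its conventional non-pregnant mean of 106 CPM stood against a median of 18.8 CPM. Close Mup copies share reads, so the 6 are not separate observations. Among the 6 was Mup22, at 5084 ± 3029 CPM in conventional pregnant against 19793 ± 7506 CPM in conventional non-pregnant livers. Its log2 change was -1.96 ± 0.60 (edgeR adjusted p = 0.0429). In germ-free pregnancy and in both microbiota comparisons 0 of the 11 were called by edgeR, with 2, 10 and 1 at an unadjusted p under 0.05 in germ-free pregnancy, in non-pregnant and in pregnant mice. Of all genes tested, 10.8%, 0.157% and 0.132% were called there in the same order. DESeq2 called 1, 7 and 0 of them lower in those 3 comparisons and none higher. Their median log2 difference was -2.05 in conventional and 0.01 in germ-free pregnancy. None of the 11 had a positive difference in conventional pregnancy, where Mup21 rose.

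Growth hormone acts on Mup transcription, and genes of its signalling pathway were counted as a list. Of 15 genes of growth hormone and prolactin signalling, 4 were higher and 0 lower in germ-free pregnancy, and likewise 4 and 0 in conventional pregnancy, where without both low libraries the calls were 2, Prlr and Ghr. Prlr, the prolactin receptor, rose by 3.02 ± 0.26 on the log2 scale in germ-free and by 2.69 ± 0.26 in conventional pregnancy (edgeR adjusted p = 3.94e-08 and 2.01e-07). Ghr, the growth hormone receptor, rose by 2.95 ± 0.30 and 2.40 ± 0.29 (edgeR adjusted p = 3.34e-07 and 5.76e-06). The median log2 change of the list was -0.08 in germ-free and 0.33 in conventional pregnancy. Over all genes tested, 7.15% were called higher and 3.6% lower in germ-free pregnancy, and 5.49% and 3.52% in conventional pregnancy.

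Of 19 hormone receptors and transcription factors of hepatocytes, 1 was higher and 3 lower in each pregnancy comparison, and 2 were higher in each without both low libraries. The 1 gene higher in each is near the share over all genes tested, 7.15% in germ-free and 5.49% in conventional pregnancy. For genes called lower that share was 3.6% and 3.52%. Foxa1, a liver pioneer factor, fell by 1.00 ± 0.19 in germ-free and by 1.08 ± 0.19 on the log2 scale in conventional pregnancy (edgeR adjusted p = 0.000842 and 0.00051). Of 19 tested genes known to be higher in male than in female liver, 2 were higher and 4 lower in germ-free, and 3 were higher and 3 lower in conventional pregnancy. In conventional pregnancy 1 was higher and 3 lower without both low libraries. Elovl3, a fatty acid elongase of that list, fell by 2.79 ± 0.75 in germ-free and by 3.59 ± 0.71 in conventional pregnancy (edgeR adjusted p = 0.0167 and 0.00193). Gstp1 of the same list rose by 1.34 ± 0.35 in germ-free and by 1.92 ± 0.35 in conventional pregnancy (edgeR adjusted p = 0.013 and 0.000883).

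Of 24 genes known to be higher in female liver, 9 were higher and 2 lower in germ-free, and 10 higher and 2 lower in conventional pregnancy. Sult3a2, a sulfotransferase, rose by 7.75 ± 0.77 and 5.84 ± 0.67 in germ-free and conventional pregnancy (edgeR adjusted p = 3.11e-07 and 2.65e-06). For the counts in these lists, the shares over all genes tested were 7.15% higher and 3.6% lower in germ-free pregnancy. In conventional pregnancy they were 5.49% and 3.52%. Of 9 tested lipocalins outside the Mup cluster, 1 was higher and 0 lower in germ-free, where without both low libraries 3 were higher, and 2 were higher and 1 lower in conventional pregnancy. Both of the higher ones in conventional pregnancy, Lcn2 and Orm2, were not called without both low libraries (edgeR adjusted p = 0.912 and 0.865). Of 24 abundant secreted hepatocyte proteins, 12 were higher and 1 lower in germ-free, and 5 higher and 2 lower in conventional pregnancy. Ttr, the thyroid hormone carrier transthyretin, fell by 1.69 ± 0.25 in germ-free and by 1.46 ± 0.24 in conventional pregnancy (edgeR adjusted p = 5.37e-05 and 0.000362). Serpina1e of the same list rose by 4.21 ± 0.86 in germ-free and by 3.14 ± 0.83 in conventional pregnancy (edgeR adjusted p = 0.00192 and 0.0176). In the microbiota comparisons 0 genes of these lists were called by edgeR, except Cyp2b13, a female-biased cytochrome P450, which was higher by 2.43 ± 0.28 in germ-free pregnant than in conventional pregnant livers (edgeR adjusted p = 0.000188). Over all genes tested, 0.157% were called in non-pregnant and 0.132% in pregnant mice. At an unadjusted p under 0.05 there were 19 genes of the lists in non-pregnant and 20 in pregnant mice. DESeq2 called 0 higher and 1 lower in non-pregnant, and 1 higher and 2 lower in pregnant mice.

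Among the genes whose pattern over the 22 libraries was most like the summed level of the 9 Mup genes were Dio1, Acss2, Msmo1 and Nsdhl. Likeness was the root mean square difference of centred log2 CPM, which was 0.80, 0.86, 0.88 and 0.89 for these genes, against a median of 1.37 over 6699 genes. A gene at the same level in every library would stand at 1.35, so the median is no measure of likeness. None of these genes was called by edgeR in any pregnancy or microbiota comparison. In germ-free pregnancy Dio1, Msmo1 and Nsdhl had log2 differences of 0.14, 0.24 and 0.45, where the ratio for the Mup sum was 0.777. Dio1 encodes a thyroid hormone deiodinase, Msmo1 and Nsdhl enzymes of cholesterol synthesis, and Acss2 an acetyl-CoA synthetase. Dio1 averaged 111 ± 29.4 CPM in germ-free pregnant, 101 ± 43.5 in germ-free non-pregnant, 131 ± 44.6 in conventional pregnant and 206 ± 29.5 CPM in conventional non-pregnant livers.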

How the data were processed

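Liver RNA of 22 mice was measured, 1 library per mouse. The authors deposited estimated counts per gene, made with Salmon 0.11.3 on GRCm38.p6 and used with edgeR 3.24.3, per the submitters' processing notes; the annotation release and the read layout are not given in the sources used here. Libraries were made with a NEBNext Ultra kit that does not mark strand, per the labels, so overlapping and antisense genes cannot be told apart. GENCODE M21 held 97.7% of the deposited identifiers in the same version and 99.93% in any version, and coordinates and coding sequences are from M21 (GRCm38).

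Estimated counts were rounded to whole numbers, which changed 0.0083% of the counts. Genes were kept by the default filter of edgeR 4.0.16 (minimum count 10, minimum total 15; 15928 genes), scaled by TMM and fitted by the quasi-likelihood test with 1 term per group over all 22 libraries. Adjusted p-values are Benjamini-Hochberg values over all genes tested, and those under 0.05 are calls. The SE is the log2 fold change divided by the square root of the F statistic. CPM are read counts relative to the TMM-adjusted library size.

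The 9 genes and all gene lists were chosen with earlier results of these data known. Named genes are all 9 members, other Mup rows of at least 10 CPM in a group, up to 4 called genes of each list with the largest change, and the 5 genes most alike in pattern, of which 1 is not reported here; Mup4 and Mup6 were named after their values were seen. Alternatives were DESeq2 1.42.0, other size factors, other filters, 2 groups alone, a replicate block, age, and leaving out libraries; leaving out both low libraries was chosen after seeing the data. Of 50 pairs of libraries within groups, none agreed within sampling noise (lowest mean chi-square per gene 36.1). Replicate numbers did not pair mice by the labels, so p-values measure the spread between mice of a group.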

Additional observations from a re-analysis of the deposited data

Results flagged for a closer look

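In 9 of 40 combinations of gene or sum and group examined, the highest library lay far from the others by Dixon's criterion. Chance meets it in about 1 of 20 groups of independent, normally spread values. The 40 are not independent, because close copies share reads and the sum holds the same genes, so no excess over chance is read. All 9 came from 2 libraries. Germ-free non-pregnant replicate 6 had 88.6 CPM of Mup1 against at most 17.2 CPM in the other 5 libraries of its group, and 59.3 CPM of Mup7 against at most 14.6 CPM. It also had 567 CPM of Mup11 against at most 79.8 CPM, 51.4 CPM of Mup12 against at most 11.3 CPM and 375 CPM of Mup20 against at most 84.3 CPM. Its sum of the 9 genes was 4563 CPM, against at most 1864 CPM in the others. In the same library the summed hepatocyte markers, a sum that rests mostly on Alb, were 86979.6 CPM, the highest of its group. The erythroid markers were 414 CPM. The part of both marker sets in these values was not tested.

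Conventional non-pregnant replicate 4 had 151 CPM of Mup1 against at most 72.5 CPM in the other 5, 114 CPM of Mup7 against at most 38.4 CPM, and 87.5 CPM of Mup12 against at most 37.97 CPM.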

How the results depend on the processing

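Of 840 values of single genes under another setting, 777 kept their direction and their side of the threshold, 24 lost and 21 gained a call, and 18 changed sign, none of them in a called value. The calls of Mup20 and Mup21 in both pregnancy comparisons, and of Mup1, Mup11 and Mup12 in conventional pregnancy, held in every fit run. Genes lower in germ-free pregnancy numbered 1 to 3 without 1 library each, 1 with the replicate block and 4 without both low libraries, against 2. Germ-free non-pregnant replicate 2 was chosen for its low Mup level, so calls gained without it follow in part from that choice. In non-pregnant mice, genes higher in germ-free livers numbered 0 to 1 without 1 library each, and 1 with no filter on low counts, with 2 groups alone, with DESeq2 and without both low libraries, against 0. With age as a covariate 0 were lower, against 3. In pregnant mice, 0 to 1 were higher without 1 library each, and 1 with no filter and with DESeq2, against 0; 1 was lower with DESeq2 and without both low libraries, against 0.

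Sign changes were all of differences that had not passed the test. In germ-free pregnancy, Mup3 was 0.14 with the replicate block and -0.54 to 0.16 without 1 library each, Mup7 was -1.54 to 0.11, and the log2 ratio of the summed level was -0.59 to 0.20. Between germ-free and conventional non-pregnant mice, Mup20 was -0.81 to 0.27 without 1 library each and 0.17 without both low libraries. Between the pregnant groups, Mup1 was 0.25 with age and -0.76 to 0.18, and Mup12 was -0.75 to 0.27. The interaction of Mup20 was -0.71 to 0.38. With all Mup rows as the denominator, the Mup3 share was 15.1%, 14.6%, 17.5% and 7.92% in germ-free pregnant, germ-free non-pregnant, conventional pregnant and conventional non-pregnant livers. The causes of these changes were not tested. Replicate numbers did not pair the mice: 6 of 31 same-numbered pairs of libraries had a correlation of deviations over 0.1, and 4 of 22 libraries matched their own number best, so the replicate block shows only how calls move: with it Mup15 was called lower in conventional pregnancy (edgeR adjusted p = 0.0132), and the median of the 9 genes in germ-free pregnancy was -0.12. Few reads limit the precision of single values: Mup15 had 0 counts in 1 library, and the lowest levels of Mup7 and Mup12 were 0.0871 and 0.323 CPM.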
